A study of Mus musculus with 4 samples.

Results

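The DnaJ genes encode the J-domain cochaperones, and their messenger RNAs were followed here across 4 lung libraries of mice with and without treadmill exercise and with and without tumor. Members were all rows whose symbol begins with Dnaja, Dnajb or Dnajc and a number, apart from Dnajb1, with a value above 0 in at least 1 library. Of 23282 rows, 44 matched by symbol and 41 were members. The 3 that stayed out, Dnajb7, Dnajb8 and Dnajc5g, were listed at 0 in all 4 libraries. The member with the fewest reads, Dnajc22, had 12 reads in a single library.

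All mice were of the CDF1 strain and male, with 10 mice in each group. They are labelled as postnatal day 28, which matches the age at purchase in the methods, and the lungs were taken at the end of the experiment, so the mice were older at sampling. The normal control, E(-)T(-), had neither exercise nor tumor. The normal exercise group, E(+)T(-), ran on a motorized treadmill at high intensity and carried no tumor. The cancer control, E(-)T(+), did not run and was injected through the tail vein with CT26, a line of mouse colorectal carcinoma cells, and the cancer exercise group, E(+)T(+), had both the injection and the treadmill. Cells given this way seed tumors in several organs, the lung among them, so a lung of either tumor group can hold RNA of tumor cells as well as of lung. Each group is represented by 1 lung library, and how many mice it stands for is not stated for lung. Muscle RNA came from a representative mouse of each group, and the lungs are described as analysed in a similar way. No difference between groups therefore has a replicate check, and no test between conditions was made.

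J-domain proteins work with the Hsp70 chaperones. The J domain, with its conserved His-Pro-Asp motif, makes Hsp70 hydrolyze ATP and so close on a protein substrate, and nucleotide exchange factors then let it open again. Class A and class B members bind unfolded proteins themselves. Class C members share the J domain alone and carry it to a fixed place, such as the ribosome, the import motor of the mitochondrion, the endoplasmic reticulum or a clathrin-coated vesicle. In many tissues a few members follow the cytosolic heat shock response and others the unfolded protein response of the endoplasmic reticulum.

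Promoters are shown for the 3 cytosolic members that carried a heat shock core and stood apart between libraries, and for Dnajc3, the endoplasmic reticulum member with the highest level of its group. Each runs from 250 bases before to 50 bases after a RefSeq transcript start on GRCm38.p6 and is printed along the gene. Capitals mark the motif. The heat shock core was searched as GAANNTTC or TTCNNGAA, both of which read the same on either strand. The endoplasmic reticulum stress element was searched on both strands as CCAAT, any 9 bases and CCACG.
Dnaja1, chr4:40722218-40722517, plus strand: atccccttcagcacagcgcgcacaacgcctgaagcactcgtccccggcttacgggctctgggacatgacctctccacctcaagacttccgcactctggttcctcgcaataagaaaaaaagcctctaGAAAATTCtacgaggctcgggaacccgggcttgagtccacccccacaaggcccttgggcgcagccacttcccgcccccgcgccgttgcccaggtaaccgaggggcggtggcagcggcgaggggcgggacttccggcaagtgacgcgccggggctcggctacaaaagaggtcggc
Dnaja4, chr9:54699309-54699608, plus strand: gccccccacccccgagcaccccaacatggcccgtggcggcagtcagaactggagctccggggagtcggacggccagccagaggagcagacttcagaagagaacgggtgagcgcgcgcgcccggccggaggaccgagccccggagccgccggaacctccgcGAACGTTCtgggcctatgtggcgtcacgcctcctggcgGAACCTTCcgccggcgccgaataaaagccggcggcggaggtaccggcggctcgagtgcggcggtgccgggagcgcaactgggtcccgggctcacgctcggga
Dnajb4, chr3:152193796-152194095, minus strand: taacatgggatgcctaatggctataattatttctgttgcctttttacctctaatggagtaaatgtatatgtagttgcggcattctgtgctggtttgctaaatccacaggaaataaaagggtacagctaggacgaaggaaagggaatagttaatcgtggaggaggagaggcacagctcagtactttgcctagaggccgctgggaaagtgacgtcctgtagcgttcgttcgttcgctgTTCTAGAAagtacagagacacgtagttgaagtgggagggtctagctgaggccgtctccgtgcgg
Dnajc3, chr14:118937682-118937981, plus strand: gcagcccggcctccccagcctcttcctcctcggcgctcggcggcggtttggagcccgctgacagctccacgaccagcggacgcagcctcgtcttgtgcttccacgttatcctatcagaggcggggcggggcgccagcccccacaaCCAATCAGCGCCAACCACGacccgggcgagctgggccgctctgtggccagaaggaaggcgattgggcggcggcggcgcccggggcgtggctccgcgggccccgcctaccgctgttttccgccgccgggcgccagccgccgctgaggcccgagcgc
The core of Dnaja1 began at position -124 from the start, those of Dnaja4 at -90 and -52 and that of Dnajb4 at -14. The element of Dnajc3 began at -105. The other RefSeq promoters of Dnaja1, Dnaja4 and Dnajb4 held no core.

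Promoters were available for 33 of the 41 members. Either heat shock core lay in 6 of these 33 members, Dnaja1, Dnaja4, Dnajb4, Dnajb6, Dnajc10 and Dnajc27. That is 18.2% of the members, against 17.0% of all genes in the RefSeq table and 15.1% of its 32851 promoters of this length. The CCACG part, which is also the end of the full element, lay in 23 of the 33 members, 69.7%, against 35.5% of all genes and 32.8% of promoters. The full element lay in Dnajc3 alone among the members and in 0.119% of all promoters. The CRE-like letters TGACGTGG, also searched on both strands, lay in Dnajc25 alone and in 0.676% of promoters. A match describes letters in a window and is not a bound site.

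The libraries held between 9354511 and 13367985 reads on genes, so that 3 reads, taken as the smallest countable level, equal 0.224 to 0.321 CPM (reads of a gene scaled by the library total). The cancer control stood apart from the other libraries in composition. Its hemoglobin genes took 1.43% of reads, against 14.3% in the normal control, 14.2% in the normal exercise and 31.4% in the cancer exercise library. All 10 alveolar epithelial markers had reads in every library, and their sum was 3331 CPM in the cancer control, against 12242 to 24879 in the others. The sum of 16 cell division genes was 1641 CPM in the cancer control and at most 364 in the others. The 12 neutrophil genes summed to 372, 1065, 1173 and 13481 CPM from the normal control over normal exercise and the cancer control to cancer exercise, and 7 of the 12 were at least 2-fold higher in normal exercise than in the normal control, with a median log2 difference of 1.54. The 6 B cell genes summed to 1.28 CPM in the cancer control, where 4 of them had no reads, and to between 18.4 and 81.4 CPM in the others. Of the 4 skeletal muscle genes past the count filter, 2 were at least 2-fold lower in normal exercise than in the normal control, with a median log2 difference of -1.37. In cancer exercise 3 of these 4 were at least 2-fold higher than in the cancer control, and 3 than in normal exercise, with medians of 1.64 and 2.09. The 4 plasma cell genes summed to 72.1 CPM in cancer exercise and to between 8.77 and 21.6 CPM in the others. In such bulk RNA, fewer cells of a type and less RNA per cell cannot be told apart. The part of these shifts in the differences below was not tested.

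Levels are given as the deposited log2(normalized read count + 1), and 4 values in a row run from the normal control over normal exercise and the cancer control to cancer exercise. Differences are differences of these log2 levels, so 1 unit is 2-fold, and they understate the change of low genes. The bracket after a difference is the exact 95% interval of the read ratio, on the log2 scale, and covers counting error alone. A member was counted as higher or lower when the difference was at least 2-fold and the interval left out 0, among the 15164 rows whose normalized counts averaged 4 or more over the libraries. Of the 41 members, 40 passed this filter and Dnajc22 did not.

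**Figure D1:**
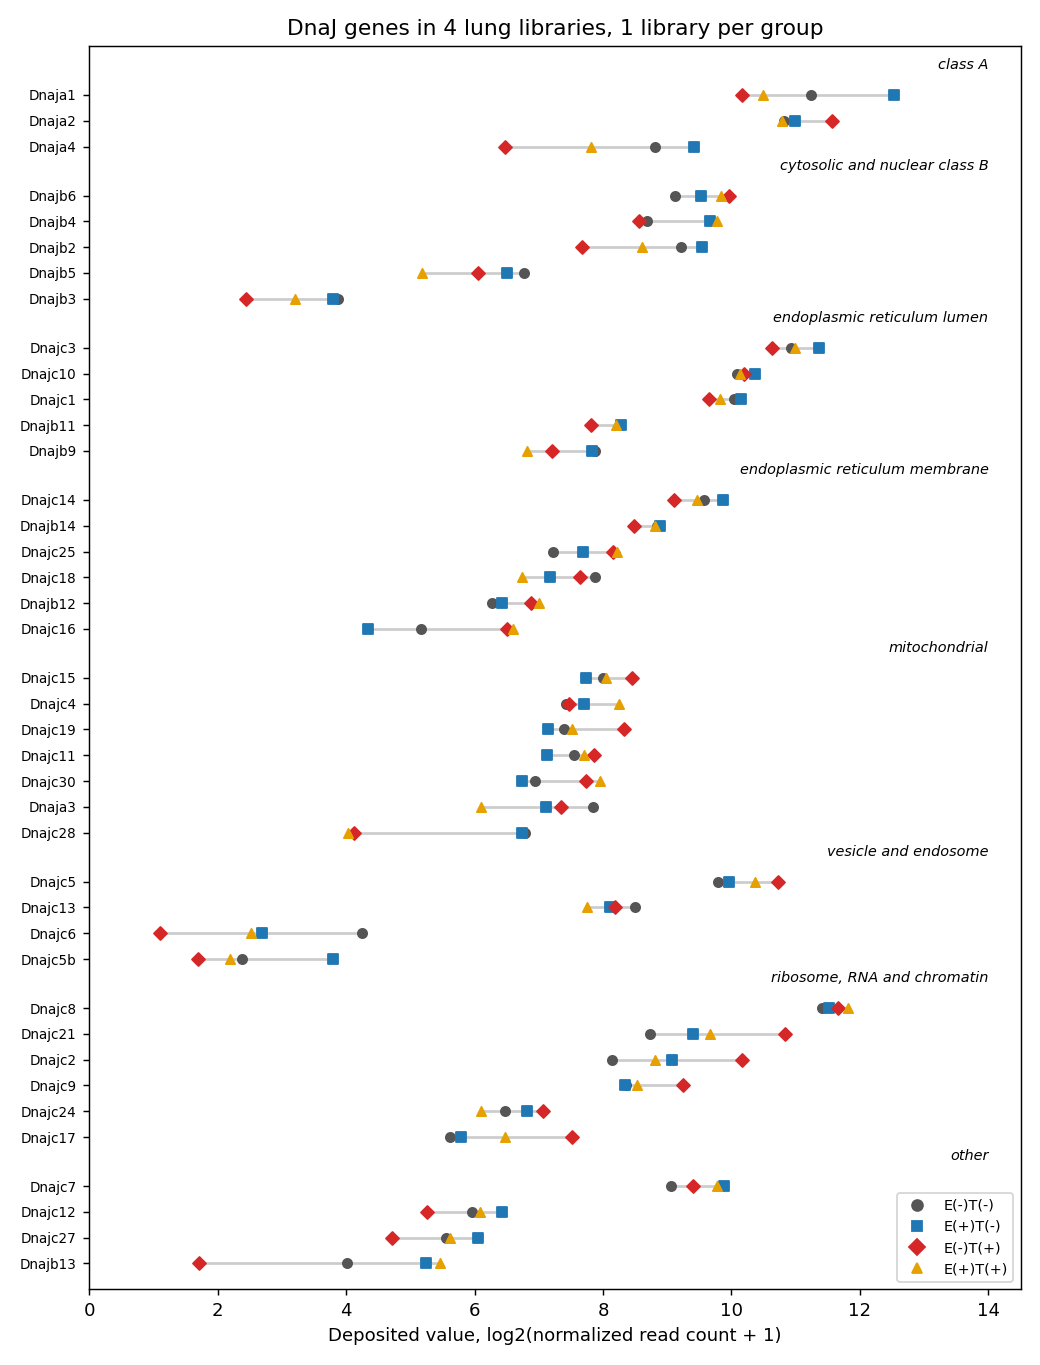
Level of each DnaJ member that passed the count filter in the 4 lung libraries, as log2(normalized read count + 1), grouped by the role of the protein, with 1 library per group. The members span a median of 1.10 across the libraries, while Dnaja1 stands at 12.54 in the normal exercise library and Dnaja4 drops to 6.47 in the cancer control.

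Members spanned less across the libraries than rows in general. The median distance between the highest and the lowest library was 1.10 for the 40 members and 1.38 for all 15164 rows, and it reached 1 unit for 21 members, 52.5%, against 66.0% of rows. The highest value lay in the normal exercise library for 13 members, 32.5%, against 19.7% of all rows, and in the cancer control for 11, 27.5%, against 35.5%. The lowest value lay in the cancer control for 15 members, 37.5%, against 36.9% of all rows. Over the 4 comparisons 17 members, 42.5%, were counted at least once, against 60.9% of rows. These are descriptions of 1 set of libraries, and the comparisons share libraries with each other.

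The family's summed level was highest with exercise and no tumor. The normalized counts of the members summed to 19726, 26631, 22755 and 21111. Dnaja1 alone made 12.2% of the members' reads in the normal control (95% Wilson interval 11.8 to 12.7%), 22.3% in the normal exercise library (21.9 to 22.8%), 5.01% in the cancer control (4.72 to 5.32%) and 6.78% in the cancer exercise library (6.43 to 7.16%). Without Dnaja1 the sums were 17312, 20685, 21614 and 19679, and the highest lay in the cancer control. So a single gene decided which library came first. As CPM of the library total, the members summed to 1783, 2268, 2220 and 1351, so the lowest sum lay in cancer exercise there and in the normal control as deposited. The log2 ratio for exercise with tumor was -0.11 as deposited and -0.72 under library totals.

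**Figure D2:**
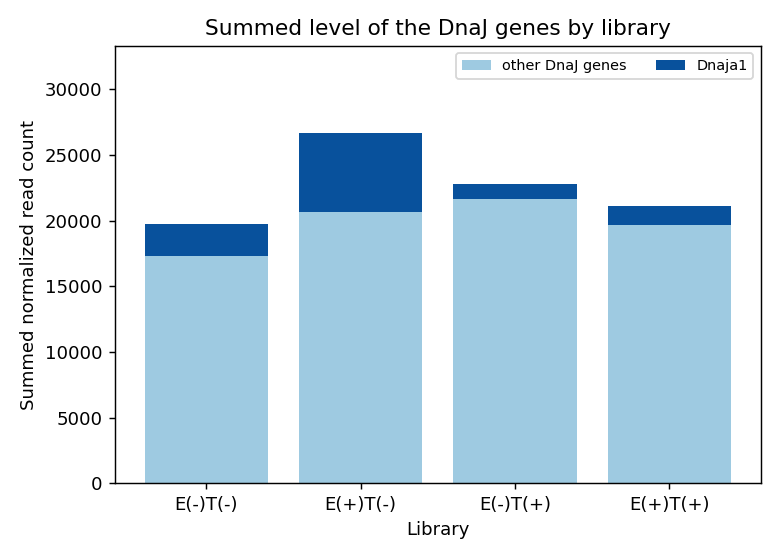
Summed normalized read count of the 41 DnaJ members in each lung library (vertical axis, from 0), with Dnaja1 in dark blue and the other members in light blue. The bar of the normal exercise library is highest at 26631 and owes this to Dnaja1, since the light bars reach 20685 there and 21614 in the cancer control.

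The first comparison, the normal exercise against the normal control library, describes exercise in mice without tumor. Of the 40 members, 3 were higher and 1 was lower, against 3.63% higher and 3.36% lower among all rows. The median member differed by 0.16, against 0.00 over all rows. Dnaja1 and Dnajb4, both cytosolic partners of Hsp70, had the largest differences among members above 100 normalized counts on average, with Dnajb4 just short of 2-fold. Each of the other 3 members past 2-fold, Dnajb13, Dnajc5b and Dnajc6, had at most 40 reads in any library. Dnajc5b and Dnajc6 passed the count filter only through the 1 library where each was high, so their calls are not independent of the filter.

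The second comparison, the cancer control against the normal control, describes tumor in mice that did not run. Here 4 members were higher and 7 lower, against 19.5% and 24.1% of all rows, and the median was -0.18, against -0.03 over all rows. Over the 29 members with a mean count of 100 or more the median turned to 0.11, against 0.05 over all such rows. Of these 29, 2 were higher and 3 lower, against 18.35% and 19.98% of all such rows. The members that were higher were Dnajc2, Dnajc17, Dnajc21 and Dnajc16, of which the first 3 belong to the ribosome, RNA and chromatin group. Those that were lower included Dnaja1, Dnaja4 and Dnajb2 of the cytosol and Dnajc28 of the mitochondrion. With the reads scaled by library totals alone, the split was 8 higher and 5 lower, beside 21.8% and 22.3% of all rows.

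The third comparison, the cancer exercise against the cancer control library, describes exercise in mice with tumor. In it 3 members were higher and 4 lower, against 22.3% and 16.5% of all rows. Higher were Dnaja4, Dnajb4 and Dnajb13, and lower were Dnajc2, Dnajc21, Dnajc17 and Dnaja3. The median member differed by 0.11, against 0.01 over all rows, and the sign turned under library totals alone, to -0.49 against -0.59 over all rows, with a split of 1 higher and 13 lower, beside 14.3% and 34.1% of all rows under that scaling.

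The fourth comparison, the cancer exercise against the normal exercise library, describes tumor in mice that ran. It placed 2 members higher and 7 lower, against 13.3% and 11.6% of all rows, with a median of -0.19, against -0.003 over all rows. Dnajc16 and Dnajc30 were higher. Dnaja1, Dnaja4, Dnaja3, Dnajb5, Dnajb9, Dnajc28 and Dnajc5b were lower. Under library totals alone the split was 1 higher and 9 lower, beside 8.24% and 22.8% of all rows. Scaling by library totals alone put the median of all rows at -0.08, 0.07, -0.59 and -0.41 in the 4 comparisons in the order just given, and totals without the hemoglobin genes put it at -0.08, -0.13, -0.08 and -0.09.

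**Figure D3:**
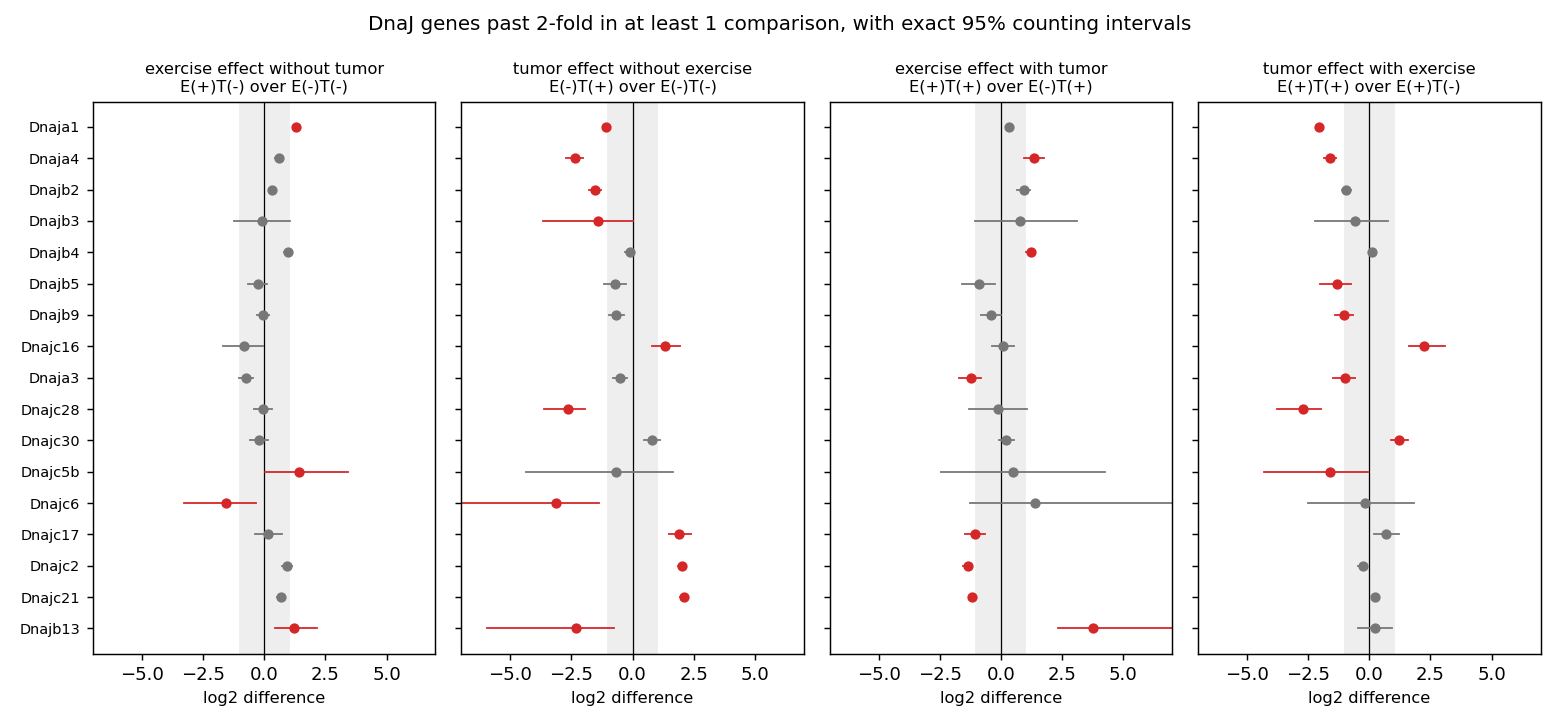
Difference in log2 level in each of the 4 comparisons for the 17 DnaJ members past 2-fold in at least 1 of them (horizontal axis, with 1 unit for a 2-fold difference), with the exact 95% interval of the read ratio as bars, drawn no further than 7 units. Members with few reads, such as Dnajc6 and Dnajc5b, have bars several units wide, and the tumor comparison without exercise spreads furthest, from -3.14 for Dnajc6 to 2.10 for Dnajc21.

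Class A members have the J domain, a glycine-rich stretch and zinc-binding repeats, and accept unfolded proteins for Hsp70. Dnaja1 (chr4:40722150-40737149, plus strand), the general cytosolic member, had levels of 11.24, 12.54, 10.16 and 10.48, from 2841, 6473, 1041 and 1225 reads. The normal exercise library was far above the other 3, and both tumor libraries lay below both libraries without tumor. The difference for exercise was 1.30 (1.24 to 1.36) without tumor and 0.33 (0.21 to 0.45) with it. For tumor, it was -1.08 (-1.19 to -0.98) without exercise and -2.05 (-2.14 to -1.97) with it. Under library totals alone the exercise difference with tumor turned to -0.28, and the tumor difference without exercise was -0.97 and short of 2-fold.

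Dnaja4 (chr9:54698873-54716315, plus strand), a stress-inducible class A member, had levels of 8.81, 9.41, 6.47 and 7.81. Its reads numbered 527, 741, 80 and 191, so both tumor libraries were again below both others. The tumor difference was -2.34 (-2.71 to -2.01) without exercise and -1.60 (-1.85 to -1.38) with it. Exercise went with a difference of 0.60 (0.44 to 0.77) without tumor and 1.34 (0.97 to 1.74) with it, which was 0.73 under library totals alone. Dnaja2, the remaining cytosolic class A member, had its highest level in the cancer control, 11.56, and stayed between 10.78 and 10.99 elsewhere.

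The last 500 bases of Dnaja1 overlap Smu1 and those of Dnaja4 overlap Wdr61, each on the opposite strand, and the use of strand in counting is not stated in the sources used here. Reads of such pairs cannot be told apart without strand. Smu1 was nearly level, at 9.70, 9.54, 9.87 and 9.99, and Wdr61 stood at 9.25, 9.18, 9.25 and 8.67.

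Cytosolic and nuclear class B members carry clients to Hsp70 and, in some cases, keep aggregation-prone proteins soluble. Dnajb4 (chr3:152178511-152210302, minus strand), a close relative of Dnajb1, had levels of 8.68, 9.66, 8.56 and 9.78, from 482, 879, 343 and 752 reads. Both exercise libraries were above both libraries without exercise, the only pattern of this kind among the members past 2-fold with over 100 reads in every library. Dnajc3, Dnajc4 and Dnajc7, all short of 2-fold, also had both exercise libraries above both others as deposited. The exercise difference of Dnajb4 was 0.98 (0.82 to 1.14) without tumor and 1.22 (1.04 to 1.41) with it, and its tumor difference was -0.12 (-0.33 to 0.08) and 0.12 (-0.02 to 0.26). With library totals alone the exercise difference with tumor was 0.62 and no longer past 2-fold.

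Dnajb2 (chr1:75236406-75245692, plus strand), which has ubiquitin-binding motifs and sends clients to the proteasome, showed 9.21, 9.55, 7.68 and 8.61. The cancer control was lowest, and differed from the normal control by -1.53 (-1.78 to -1.30). The cancer exercise library lay between them, 0.93 (0.68 to 1.20) above the cancer control, or 0.33 under library totals alone. Dnajb6, an inhibitor of polyglutamine aggregation and the class B member with the highest mean, had levels of 9.11, 9.52, 9.97 and 9.84 and did not reach 2-fold in any comparison.

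Dnajb5, a cytosolic relative of Dnajb4, had 6.77, 6.51, 6.06 and 5.18, with the lowest level in the cancer exercise library, -1.33 (-2.0 to -0.76) against normal exercise. The rodent testis gene Dnajb3 had 16, 14, 4 and 7 reads, at levels of 3.87, 3.80, 2.44 and 3.21. Its tumor difference without exercise was -1.43, and the interval ran from -3.67 to -0.00097, so it only just left out 0, and it held 0 under library totals alone and under median-of-ratios size factors.

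Dnajb1, which is not a member, is the class B gene most tied to the heat shock response and gives a reference. Its levels were 9.97, 11.59, 9.23 and 10.24, and the exercise difference was 1.62 (1.52 to 1.72) without tumor and 1.01 (0.86 to 1.16) with it, the latter 0.40 under library totals alone.

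**Figure D4:**
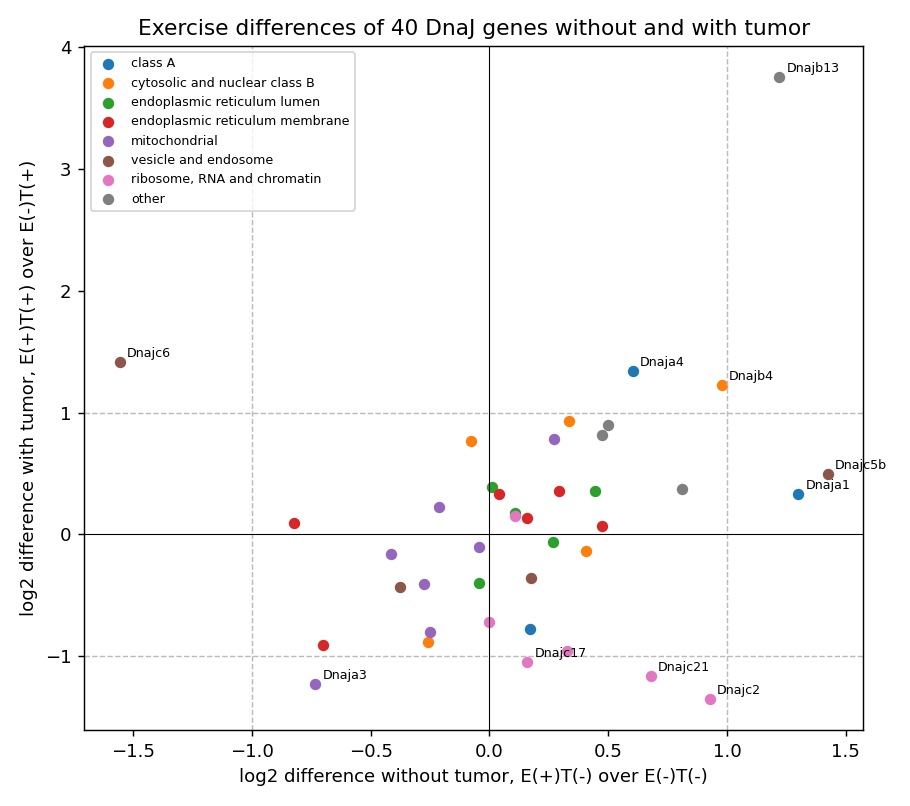
Exercise difference in log2 level with tumor (vertical axis) against that without tumor (horizontal axis) for the DnaJ members past the count filter, with 1 point per member, and 1 library per group behind every value. Dnaja1 lies to the right at 1.30 and 0.33, Dnajc2 and Dnajc21 lie below the zero line on the right, and Dnajb13 stands highest at 3.76.

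In the ribosome, RNA and chromatin group, all 6 differences of the cancer control from the normal control were above 0, as were 7410 of the 15164 rows. The 6 had a median of 1.40, and 3 of them were past 2-fold, against 19.5% of all rows. With tumor, the exercise difference was below 0 for 5 of the 6, as it was for 7536 of the 15164 rows. The 6 then had a median of -1.0, and 3, or 50%, were lower past 2-fold, against 16.5% of all rows. Both directions were the same with library totals alone, where the medians were 1.51 and -1.61 beside 0.07 and -0.59 over all rows. Under that scaling 4 of the 6 were higher past 2-fold with tumor, against 21.8% of all rows. With exercise, 5 of the 6 were then lower past 2-fold, against 34.1% of all rows. The role groups were chosen with earlier results of these data known, so the shares of this group are not independent of the data.

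Dnajc21 (chr15:10446756-10470516, minus strand), a factor for the maturation of the large ribosomal subunit, had levels of 8.73, 9.41, 10.83 and 9.66, from 498, 738, 1658 and 691 reads. Dnajc2 (chr5:21757267-21785251, minus strand), the J protein of the ribosome-associated complex that meets nascent chains, had 8.14, 9.07, 10.16 and 8.81, from 332, 585, 1043 and 382 reads. For both genes the cancer control was highest and the normal control lowest, with the exercised libraries between. Dnajc21 differed by 2.10 (1.96 to 2.25) for tumor without exercise, and Dnajc2 by 2.02 (1.84 to 2.20). The exercise differences had opposite signs without and with tumor, at 0.68 (0.51 to 0.85) and -1.17 (-1.30 to -1.04) for Dnajc21 and 0.93 (0.73 to 1.13) and -1.35 (-1.53 to -1.19) for Dnajc2.

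Dnajc17 (chr2:119172500-119208795, minus strand), a nuclear protein with an RNA recognition motif, had 5.62, 5.78, 7.52 and 6.47 from 57, 59, 167 and 75 reads. The cancer control differed from the normal control by 1.90 (1.48 to 2.38), and cancer exercise from the cancer control by -1.05 (-1.47 to -0.66). Dnajc9, a histone cochaperone, had 8.35, 8.35, 9.24 and 8.52, also highest in the cancer control but short of 2-fold. Dnajc8, a splicing-associated protein and the most abundant of the group, was the steadiest of the 6, at 11.41, 11.52, 11.66 and 11.81.

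Values of the 16 cell division genes are given beside this group. All 16 were higher by at least 2-fold in the cancer control than in the normal control, with a median difference of 4.31, and all 16 were lower in the cancer exercise than in the cancer control library, 15 of them past 2-fold, with a median of -1.72. In cancer exercise against normal exercise 14 of the 16 were higher past 2-fold, with a median of 1.68, where none of the 6 members was past 2-fold and their median was 0.21. Under library totals alone the median of the 6 members there turned to -0.20, beside -0.41 over all rows. Of the 6 members, 5 were then below 0 and 1 was lower past 2-fold, against 22.8% of all rows. In the cancer control none of the 16 was at 0 reads. Their part in the values of Dnajc2, Dnajc17 and Dnajc21 was not tested.

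Mitochondrial members serve the import motor and folding in the matrix, or respiratory chain assembly. Without tumor, none of the 7 was past 2-fold with exercise. Their median difference was -0.25, and 6 were below 0, as were 7489 of the 15164 rows, though the intervals of Dnajc19, Dnajc28 and Dnajc30 held 0. Dnajc28 (chr16:91614254-91619026, minus strand), a little-studied mitochondrial member, had 6.78, 6.74, 4.13 and 4.03 from 128, 115, 15 and 13 reads, so the tumor libraries formed a low pair. Its tumor difference was -2.65 (-3.61 to -1.95) without exercise and -2.71 (-3.75 to -1.97) with it. For exercise, it was -0.04 (-0.42 to 0.33) without tumor and -0.10 (-1.30 to 1.06) with it, intervals which in the second case still allow a 2-fold difference.

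Dnaja3 (chr16:4639989-4707695, plus strand), the class A member of the mitochondrial matrix, had 7.85, 7.12, 7.34 and 6.11 from 270, 150, 147 and 58 reads. It was lowest in the cancer exercise library, which differed by -1.23 (-1.71 to -0.80) from the cancer control and by -1.01 (-1.49 to -0.58) from normal exercise. The latter was just past the limit, and -0.98 with a pseudocount of 4. Dnajc30 (chr5:135064202-135065862, plus strand), which associates with the ATP synthase, had the opposite tendency, at 6.95, 6.74, 7.73 and 7.96, and was 1.22 (0.90 to 1.57) higher in cancer exercise than in normal exercise. Under library totals alone that difference was 0.81 and no longer past 2-fold. Dnajc15, an import motor relative with the highest mean of the group, had 8.0, 7.73, 8.46 and 8.05.

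Members of the endoplasmic reticulum lumen assist BiP, the Hsp70 encoded by Hspa5, in folding, translocation and disposal of secretory proteins. Dnajc3 (chr14:118937976-118981697, plus strand), the inhibitor of the kinases PERK and PKR whose promoter is printed above, had 10.92, 11.37, 10.62 and 10.98 and differed by at most 0.45 (0.37 to 0.53) for exercise and -0.38 (-0.47 to -0.30) for tumor. Dnajb11, Dnajc1 and Dnajc10 had no difference past 0.45 in size as deposited. Under library totals alone Dnajc3 was at -0.80 for tumor with exercise, and its exercise difference with tumor turned to -0.25. Dnajb11, Dnajc1 and Dnajc10 were then at -0.48, -0.74 and -0.64 for tumor with exercise, beside -0.41 over all rows. For exercise with tumor they were at -0.22, -0.43 and -0.67, beside -0.59 over all rows. Dnajb9, a target of the unfolded protein response that works in protein disposal, had 7.87, 7.83, 7.21 and 6.81. Its cancer exercise level differed from that of normal exercise by -1.02 (-1.38 to -0.68), the single call among these 5 members, and by -0.999 with a pseudocount of 4.

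Members in the membrane of the endoplasmic reticulum were likewise mostly below 2-fold. Dnajc16 (chr4:141760189-141790931, minus strand), a regulator of autophagosome size, was the exception, with 5.16, 4.34, 6.50 and 6.60 from 41, 21, 82 and 82 reads. Both tumor libraries were above both others. The tumor difference was 1.34 (0.81 to 1.94) without exercise and 2.26 (1.61 to 3.08) with it. Dnajc14, which takes part in export of receptors from the membrane and has the highest mean here, had 9.58, 9.87, 9.11 and 9.47, and its last 500 bases overlap Ormdl2 on the opposite strand, which stood at 9.45, 9.74, 8.73 and 9.13.

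Dnajc22 had 12 reads in the cancer control and 0 in each of the other libraries. Its reads were set against a floor of 3 reads per library, scaled by effective library size (total times scaling factor) as in the intervals. The 12 reads stood 5.16-fold above that floor in the normal control, 4.77-fold in normal exercise and 3.75-fold in cancer exercise. These folds take the 12 reads as exact. With their counting error, the interval of the tumor difference without exercise began at 1.84 on the log2 scale. That of the exercise difference with tumor ended at -1.38. The mean of Dnajc22 was under the count filter, so it is in none of the counts past 2-fold.

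Among vesicle and endosome members, Dnajc5, the cysteine string protein of secretory vesicles, had the highest mean, at 9.78, 9.96, 10.72 and 10.36. Dnajc6, the neuronal auxilin that uncoats clathrin vesicles, had 21, 6, 1 and 4 reads, at levels of 4.25, 2.70, 1.11 and 2.52. Against the normal control it differed by -1.56 (-3.29 to -0.34) in normal exercise and by -3.14 (-9.40 to -1.39) in the cancer control. Dnajc5b, a relative of Dnajc5 best known from testis, had 5, 14, 2 and 3 reads, at 2.38, 3.80, 1.70 and 2.19. Its exercise difference without tumor was 1.42 (0.04 to 3.42), an interval that held 0 under library totals, and its tumor difference with exercise was -1.61 (-4.31 to -0.03). Intervals this wide say little of the size. Dnajc5b passed the count filter through normal exercise, at 13.0 normalized counts, against 4.20, 2.24 and 3.57 in the normal control, cancer control and cancer exercise. Dnajc6 passed it through the normal control, at 18.1, against 5.48, 1.16 and 4.74 in normal exercise, cancer control and cancer exercise. Calls of these 2 genes that involve those libraries are therefore not independent of the filter.

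Of the remaining members, Dnajc7, which binds both Hsp70 and Hsp90, had 9.06, 9.88, 9.40 and 9.77, with an exercise difference of 0.81 (0.67 to 0.96) without tumor. Dnajb13 (chr7:100501716-100514960, minus strand), a structural protein of the radial spokes of motile cilia, had 18, 40, 2 and 37 reads, at 4.02, 5.24, 1.71 and 5.46. The cancer control was far below the other libraries, and the exercise difference was 1.22 (0.43 to 2.15) without tumor and 3.76 (2.35 to 7.40) with it. The tumor difference without exercise was -2.31 (-5.95 to -0.74).

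Markers of motile cilia were compared with Dnajb13. All 10 of them had reads in every library, and their sum was 647, 594, 82.4 and 248 CPM. All 10 were lower by at least 2-fold in the cancer control than in the normal control, and all 10 were higher in cancer exercise than in cancer control, 8 of them past 2-fold, as Dnajb13 was. Exercise without tumor moved none of them past 2-fold, and their median difference was -0.01, where that of Dnajb13 was 1.22. The last 500 bases of Dnajb13 overlap Ucp2 on the opposite strand, which had 1569, 1344, 864 and 2935 reads. The part of either in the Dnajb13 values was not tested.

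The Hsp70 partners of the family, their exchange factors and 4 J proteins under other symbols were counted in the same way, as 26 genes that passed the filter. This list too was chosen with earlier results of these data known. Without tumor, 4 were higher with exercise, against 3.63% of all rows, and none lower, and these were Hspa1a, Hspa1b and Hspa8 of the cytosol and the exchange factor Hsph1, at 3.44, 3.74, 1.05 and 2.04. Under library totals, with or without the hemoglobin genes, 3 were higher, and Hspa8 was the nearest to the limit. Reads may be split between Hspa1a and Hspa1b, which are nearly identical copies. Tumor without exercise placed 4 higher and 4 lower, 15.4% each way, against 19.5% and 24.1% of all rows. Higher were Bag2 (3.53), the mitochondrial Hsp70 gene Hspa9 (1.98), Hspbp1 (1.34) and Hspa1l (1.05), and lower were Hspa1a (-4.05), Hspa1b (-2.21), Hsph1 (-1.81) and Hspa2 (-1.57).

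With tumor, exercise placed 3 partners higher, Hspa2, Hspa1a and Hspa13, and 6 lower, Bag2, Hspa1l, Hspa4l, Hspa9, Bag4 and Hspa8, where 22.3% of all rows were higher and 16.5% lower. Under library totals alone the split was 1 higher and 9 lower of 26, against 14.3% and 34.1% of all rows, so that the share lower was near that of all rows. Tumor with exercise placed none higher and 6 lower, against 13.3% and 11.6% of all rows, with Hspa1b at -6.25, Hspa1a at -5.92, Hsph1 at -2.99, Hspa4l at -1.85, Hspa1l at -1.67 and Hspa8 at -1.49. The J proteins under other symbols, Sec63, Hscb, Gak and Pam16, were past 2-fold in none of the comparisons.

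The cytosolic heat shock genes and the endoplasmic reticulum stress genes, lists with no member in them, were counted beside the family. Both lists were chosen with earlier results of these data known, so their shares are not independent of the data. Of 17 heat shock genes, Dnajb1 and 6 of the partners among them, 15 were higher in normal exercise than in the normal control (12 under library totals, with or without the hemoglobin genes), against 3.63% of all rows, with a median of 1.33. In cancer exercise 15 were lower than in normal exercise, against 11.6% of all rows, with a median of -1.80. In the same 17 genes, exercise with tumor had 3 higher and 5 lower, against 22.3% and 16.5% of all rows, with a median of -0.17. Under library totals alone these were 1 higher and 7 lower, against 14.3% and 34.1%, with a median of -0.77, against -0.59 over all rows. Tumor without exercise had 4 higher and 5 lower of the 17, shares near the 19.5% and 24.1% of all rows, with a median of 0.04. Of 16 endoplasmic reticulum stress genes, 3 were higher in the first comparison, against 3.63% of all rows, with a median of 0.60, and 2, or 12.5%, were lower in the last, against 11.6% of all rows. The 2 became 7 under library totals alone and 4 under totals without the hemoglobin genes, beside 22.8% and 13.7% of all rows. Tumor without exercise had 2 of these 16 genes higher and none lower, against 19.5% and 24.1% of all rows. Exercise with tumor had none past the limit, with a median of -0.09. Under library totals alone that comparison had 5 lower, against 34.1% of all rows, with a median of -0.69. Hspa5, the partner of the lumenal members, had an exercise difference without tumor of 0.96, while the 5 lumenal members had a median of 0.11.

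Members with a heat shock core in a promoter had exercise differences without tumor from 0.27 to 1.30, with a median of 0.55 and 6 of 6 above 0. In the same 6 members, exercise with tumor was above 0 in 4, with a median of 0.61. Under library totals alone it was -0.28, -0.74 and -0.67 for Dnaja1, Dnajb6 and Dnajc10, and 0.73, 0.62 and 0.31 for Dnaja4, Dnajb4 and Dnajc27. The tumor difference was above 0 in 2 without exercise (median -0.48) and in 2 with it (median -0.33). Neither RefSeq promoter of Dnajb1 held a core, and its exercise difference without tumor was 1.62. The 27 members with a promoter and no core had a median exercise difference of 0.11 without tumor, with 16 above 0, and 0.09 with tumor. Over all rows the medians without tumor were 0.04 for the 1620 with a core, of which 868 were above 0, and -0.002 for the 9751 without. The 6 members were too few, and the libraries too few, for more than this description.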

How the data were processed

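Lung RNA was measured in 4 libraries, 1 per group, so samples were grouped by their labels with 1 library each. The authors extracted RNA with Trizol and made libraries with a QuantSeq kit, which primes at the poly(A) tail, so that a read marks a transcript's end and its length has little weight. Levels are compared between libraries and, within the summed family level, as counts of transcript ends. The authors aligned reads with Bowtie2 to mm10 (per the submitters' processing notes), counted them with bedtools and applied the quantile normalization of edgeR. Versions, strand use and the number of mice behind a lung library are not given in the sources used here. The deposited values are log2(normalized read count + 1) per gene symbol.

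Whole reads were recovered by inverting that adjustment, with a fitted dispersion of 0.372 and library scaling factors of 1.086, 1.023, 1.172 and 0.768. All values (100%) came back within 0.001, and 92.7% were resolved to 1 read. PCR copies carry no molecular identifiers, so intervals and floors cover counting error only. Depth was 13017524, 12780372, 9354511 and 13367985 reads. Exact (Clopper-Pearson) 95% intervals of read ratios used effective library sizes, and shares had Wilson intervals. The limit was 2-fold with an interval that leaves out 0, for rows whose normalized counts averaged 4 or more. With 1 library per group no p-value was computed.

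Values in all libraries are given for each member past the limit and for the member with the highest mean in each role group, and partners are named where past the limit. A gene of the partner list is not reported here. The members, role groups and lists were chosen with earlier results of these data known. Alternatives were 3 other scalings, a pseudocount of 4, no filter, a filter of 100 and a subtraction from the normal exercise library. Gene positions are from GENCODE M21 and promoters from RefSeq, both GRCm38. Protein sequences were not used here. The recovery of reads was tested on simulated data. Scripts used Python 3.11.15, NumPy 2.4.6, SciPy 1.17.1, pandas 2.3.3, statsmodels 0.14.6 and matplotlib 3.10.9.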

Additional observations from a re-analysis of the deposited data

Results flagged for a closer look

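Differences of the same kind pointed opposite ways in the paired comparisons for Dnajc2 and Dnajc21, with intervals that left out 0 on both sides and at least 1 of the values past 2-fold. For Dnajc2 the exercise difference in log2 level was 0.927 without tumor and -1.354 with tumor. For Dnajc21 it was 0.679 without tumor and -1.168 with tumor. The tumor difference of Dnajc2 was 2.015 without exercise and -0.266 with exercise. Each of these values rests on 1 library per group, and whether the effects differ was not tested. Both genes were highest in the cancer control, as were 35.5% of all rows. That library also had the highest level of cell division genes, whose part in these values was not tested.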

How the results depend on the processing

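Each group has 1 library, so leaving out a replicate was not possible. No paired analysis was possible because each group has a single library. Values under other scalings, another pseudocount or the subtraction numbered 137, each for a member in a comparison where it was called. Of these, 11 were no longer past the limit. None changed sign, but each was at least 2-fold as deposited, so a change of sign could hardly occur. Signs did turn among values that were not called. An example is Dnaja1 for exercise with tumor, at 0.33 as deposited and -0.28 under library totals alone. Library totals alone ended 6 of 31 calls, with values of 1.33 for Dnajc5b (exercise without tumor), -0.97 for Dnaja1 and -1.36 for Dnajb3 (tumor without exercise), 0.73 for Dnaja4 and 0.62 for Dnajb4 (exercise with tumor) and 0.81 for Dnajc30 (tumor with exercise). Library totals without the hemoglobin genes ended the call of Dnajc5b (1.33), and median-of-ratios size factors that of Dnajb3 (-1.40). A pseudocount of 4 left Dnajb9 at -0.999 and Dnaja3 at -0.98 for tumor with exercise. The normal exercise library held 1.47% of the cancer control's level of 9 genes that had no reads in the normal control, and taking that share off left Dnaja3 at -0.99.

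Library totals alone also moved the members' median to -0.0701 for tumor without exercise, to -0.49 for exercise with tumor (0.11 as deposited) and to -0.57 for tumor with exercise. They took the members past 2-fold for exercise with tumor from 7 to 14 (all rows, from 38.7 to 48.4%) and the median span across libraries from 1.10 to 1.28. A mean count of at least 100 kept 29 members. It left 1 of 4 calls for exercise without tumor, 5 of 11 for tumor without exercise and 5 of 9 for tumor with exercise. Fewer genes were tested under it. Of all rows past it, 2.09%, 38.3% and 17.9% were called in these comparisons, against 6.997%, 43.7% and 24.9% past the filter of 4. The filter of 100 moved the members' medians of the last 2 to 0.11 (from -0.18) and -0.071 (from -0.19). The other counts past 2-fold, members and partners alike, stayed within 1.5 times of those given, and the other medians of members within 0.1. The partners' median moved from -0.14 to -0.75 for exercise with tumor and from -0.15 to -0.57 for tumor with exercise under library totals alone. Depth limits the members with few reads most, such as Dnajc5b and Dnajc6, whose intervals are widest.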
